A study of Mus musculus with 168 samples.

Results

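The comparison described here is that of all expanded Htt knock-in lines with their controls in the hippocampus at 2 months of age. The series has 56 libraries at each of 3 ages, and all 56 titled 2 month were used: 40 from mice of the Q80, Q92, Q111, Q140 and Q175 lines (8 per line, 19 females and 21 males) and 16 from control mice of the Q20 line and wild type (WT; 8 each, 8 females and 8 males). All mice were of the C57BL/6 strain. Mice of the knock-in lines are heterozygous, with a normal mouse Htt allele and an engineered allele that carries human HTT exon 1 with a CAG repeat of about the length in the line's name. The WT mice were littermates of the Q20 mice, and the Q20 repeat is close to the usual human length. The other libraries came from mice of 6 and 10 months.

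Each knock-in line was bred separately, by crossing heterozygous males with C57BL/6J females, and the WT mice came from the Q20 line only. The Q175 allele arose by spontaneous lengthening of the repeat in the Q140 line. In a difference between the 40 expanded and the 16 control libraries, repeat length, other DNA inherited with the knock-in allele, and the line's breeding therefore cannot be told apart. In whole tissue, fewer cells of a type and less RNA per cell cannot be told apart either.

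Total counts ran from 31.8 to 46.4 M in expanded and from 32.2 to 42.1 M in control libraries (medians 39.8 and 38.4 M). As to the tissue label, each of 28 marker genes of CA1, CA2 and CA3 pyramidal neurons and dentate granule cells had a median above 1 count per M counts (CPM). Libraries are named here by genotype, sex and number. Standardized connectivity measures how alike a library is to the rest, and its threshold was -5. Q175 male 2, Q140 female 4 and Q111 female 3 stood apart from all others (-83.2, -37.4 and -21.7), and no control library did. These are called divergent libraries and were kept unless stated. Q80 male 2 had 0 CPM of the Y-linked Ddx3y although it is labelled male, with 1.02 CPM of Xist, as in males, and the same 5 genes passed the test without it. Q20 female 2 and WT male 4 carried pituitary transcripts, and 4 libraries had an Abhd1 level unlike that of their genotype. Both cases are described with the genes they touch.

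Huntingtin, the product of Htt, is a large scaffold protein that takes part in vesicle transport, autophagy and transcription. Expansion of the CAG repeat in exon 1 lengthens a polyglutamine stretch near its start and causes Huntington's disease, in which projection neurons of the striatum are lost first and the hippocampus and cortex are affected as well. In knock-in mice the expanded repeat sits in the endogenous gene on chromosome 5, so that mutant huntingtin is made where and when the normal protein is.

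The stretch that differs between the groups by design is shown in its mouse reference form, to place the repeat. It starts at the first coding base of Htt (chr5, position 34761907, build GRCm38, plus strand, GENCODE transcript), and the capitals mark the 4 pure CAG units at chr5:34761967-34761978.

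Htt exon 1: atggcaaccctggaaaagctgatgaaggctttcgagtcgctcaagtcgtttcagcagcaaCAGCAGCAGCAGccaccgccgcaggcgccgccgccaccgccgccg

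The second set of sequences is from 3 near-identical genes of the Speer family, spermatogenesis-associated glutamate-rich proteins that form a cluster on chromosome 5. These genes are shown because 1 of them fell and another rose, and reads of such copies can be assigned to the wrong copy. Each stretch is 60 bases of coding sequence read along the gene's own strand, and capitals mark the 6 positions at which the 3 copies are not all alike. Gm7361 is shown from chr5:26257817-26257876 (plus strand), Gm10471 from chr5:26089109-26089168 (minus strand) and Speer4b from chr5:27501253-27501312 (minus strand).

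Gm7361: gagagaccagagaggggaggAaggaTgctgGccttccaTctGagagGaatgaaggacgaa
Gm10471: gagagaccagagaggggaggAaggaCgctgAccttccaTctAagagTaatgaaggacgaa
Speer4b: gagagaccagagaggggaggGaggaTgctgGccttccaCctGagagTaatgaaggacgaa

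Over their coding sequences, Gm7361 and Gm10471 were identical at 739 of 756 aligned bases (97.8%), Gm7361 and Speer4b at 763 of 801 (95.3%), and Gm10471 and Speer4b at 725 of 756 (95.9%). Of all 50-base words in their transcripts, 40.02% in Gm7361, 48.1% in Gm10471 and 32.2% in Speer4b also occurred in transcripts of other genes. Their counts are therefore uncertain in how reads were shared among copies.

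The question put to these libraries was which transcripts already differ in young adult mice of the expanded lines as a whole. Of 17320 genes tested, 5 passed the threshold (0.0289%), of which 3 rose in expanded mice (Drc1, Gm6410 and Speer4b; 0.0173%) and 2 fell (Gm7361 and Pomc; 0.0115%). An unadjusted p under 0.05 was reached by 859 genes (4.96%). Without the 3 divergent libraries 8 of 17333 genes passed (0.0462%), the same 5 and Galnt11, Gm10471 and Gm5067, which rose, and 1323 genes (7.63%) had an unadjusted p under 0.05. No gene had groups that did not overlap (0%). Of these 8 genes, all but Pomc and Gm6410 lie on chromosome 5, within 10 Mb of Htt and before it in coordinates.

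Gm7361 (ENSMUSG00000059645, chr5:26257691-26264308, plus strand), a predicted protein-coding member of the Speer family, was the gene with the smallest p. Its lowest, median and highest levels were 0.709, 1.27 and 2.29 CPM in the 40 expanded libraries and 1.27, 2.37 and 2.72 CPM in the 16 controls. All 40 expanded libraries lay below the control median and 20 of them below the lowest control. That lowest control was Q20 male 4 with 1.27 CPM, while the next lowest was a WT library at 1.92 CPM. Gm7361 fell by 0.79 on the log2 scale (SE 0.11, adjusted p = 3.21e-05 in edgeR's quasi-likelihood test with Benjamini-Hochberg adjustment). The numbers behind these levels are small, with a median of 48.5 counts per expanded library and 90.8 per control library. By line the medians were 1.34 CPM in Q80, 1.67 in Q92, 1.29 in Q111, 1.08 in Q140 and 1.12 in the Q175 line, against 2.44 in Q20 and 2.28 in WT, so that the 2 control genotypes were close to each other and each line was below both. Q92 had the smallest difference (-0.50) and Q140 the largest (-1.06), and the lines did not pass a test of differences among them (adjusted p = 0.9996).

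Drc1 (ENSMUSG00000073102, chr5:30281388-30366695, plus strand), whose product belongs to the dynein regulatory complex that governs the beat of motile cilia, had a lowest, median and highest level of 8.99, 13.4 and 29.0 CPM in expanded and 8.11, 9.79 and 11.9 CPM in control libraries. In expanded mice 34 of 40 libraries lay above the highest control and 38 above the control median. The highest value belonged to Q111 female 3 and the next, 16.6 CPM, to Q175 male 2, both of them divergent libraries. Drc1 rose by 0.44 (SE 0.07, adjusted p = 0.001017), and by 0.38 (SE 0.05, adjusted p = 5.04e-06) without the divergent libraries. Its difference was above 0 in each line, with 0.37 in Q80, 0.37 in Q92, 0.59 in Q111, 0.44 in Q140 and 0.40 in Q175. The value of Q111 includes the divergent Q111 female 3, next to which the highest library of that line had 15.5 CPM. No 50-base word of its transcript occurred in another gene, and the median count was 525 in expanded and 386 in control libraries, so that its call rested on more reads than those of the other called genes.

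Speer4b (ENSMUSG00000048703, chr5:27495639-27501438, minus strand) lies within Dpp6, which encodes an auxiliary subunit of potassium channels, on the opposite strand. It was scarce, at 0.0242, 0.203 and 0.403 CPM in expanded and 0.0243, 0.0586 and 0.214 CPM in control libraries (lowest, median and highest), which are medians of 8 and 2 counts per library. The groups overlapped, with 17 of 40 expanded libraries above the highest control and 35 above the control median. Speer4b rose by 1.5 (SE 0.29, adjusted p = 0.008037). Its line medians were highest in Q80 (0.314 CPM) and lowest in Q92 (0.116 CPM), against 0.0738 in Q20 and 0.0546 in WT. Its difference was 1.19 lower in males than in females on the log2 scale, which did not pass the test of an interaction with sex (unadjusted p = 0.0475, adjusted p = 0.9999).

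Gm6410 (ENSMUSG00000097308), a long noncoding transcript on chromosome 8 and so on a chromosome other than that of Htt, had 0.389, 1.40 and 2.10 CPM in expanded and 0.549, 0.883 and 1.21 CPM in control libraries. A total of 30 of 40 expanded libraries lay above the highest control. It rose by 0.65 (SE 0.12, adjusted p = 0.006537). The Q92 line was split, with 5 libraries between 0.752 and 1.06 CPM, within the range of controls, and 3 at 1.56, 1.56 and 1.69 CPM, above it (median 0.937 CPM, difference 0.39, SE 0.17). Q80, Q111, Q140 and Q175 had medians of 1.34, 1.41, 1.40 and 1.58 CPM, against 0.883 in Q20 and 0.870 in WT. Of its 50-base words, 38.8% occurred in other genes on either strand, so its reads too are uncertain in origin.

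**Figure D1:**
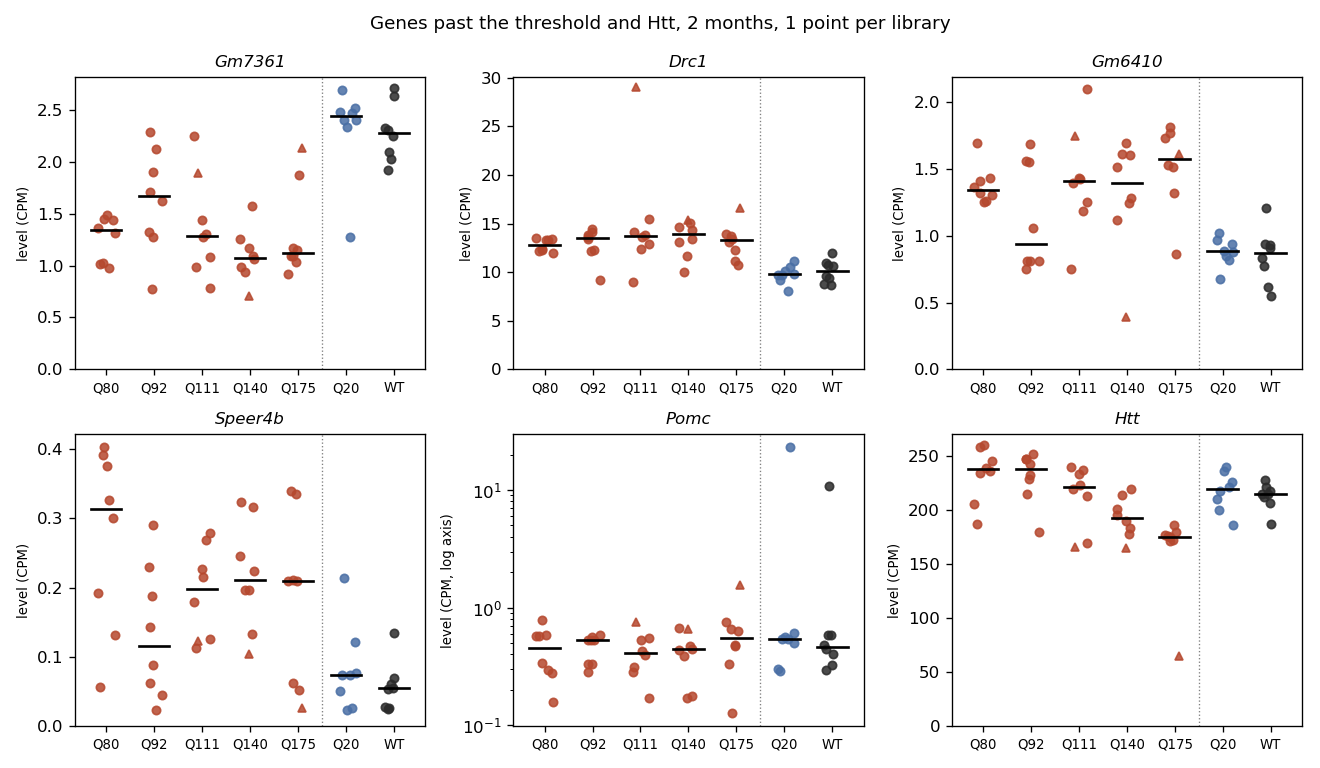
Level of the 5 genes past the threshold and of Htt in each 2-month library, in CPM (log axis for Pomc), by genotype, with the expanded lines left of the dotted line and Q20 and WT right of it; each point is a library, triangles are the divergent libraries and horizontal bars are medians. Gm7361 lies below the control median in 40 of 40 expanded libraries and Drc1 above it in 38 of 40, while the difference in Pomc is that of 2 control libraries at 22.97 and 10.83 CPM.

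Pomc (ENSMUSG00000020660, chr12:3954951-3960642), which encodes the precursor of ACTH and melanocyte-stimulating hormone in the pituitary and hypothalamus, fell by 2.33 (SE 0.38, adjusted p = 9.35e-04), but its levels did not separate. They were 0.127, 0.469 and 1.56 CPM in expanded and 0.291, 0.520 and 22.97 CPM in control libraries, with medians that were nearly alike. The 2 high values were Q20 female 2 (22.97 CPM) and WT male 4 (10.83 CPM), and the other 14 controls reached at most 0.603 CPM. In expanded libraries Prl (prolactin) reached at most 1.44, Gh (growth hormone) 0.258 and Cga (the shared subunit of the glycoprotein hormones) 0.506 CPM. The same 2 control libraries held 265.7 and 60.9 CPM of Prl, 116.0 and 183.7 CPM of Gh and 4.65 and 4.43 CPM of Cga, and the other 14 controls reached 7.60, 3.75 and 0.173 CPM, each in WT female 3. Without both libraries the difference in Pomc was 0.06 (adjusted p = 0.94), without Q20 female 2 alone -1.13 (adjusted p = 0.81), and without WT male 4 alone -1.73 (adjusted p = 0.15). Gm7361 and Drc1 still passed without both (2 genes of 17380, 0.0115%), while Gm6410 and Speer4b had an adjusted p of 0.0603 each.

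The genes that passed only without the divergent libraries had the same direction with all 56 libraries. Galnt11 (chr5:25221904-25265918), which encodes an enzyme that starts O-linked glycosylation, had 28.9, 45.1 and 50.01 CPM in expanded and 35.0, 39.8 and 43.4 CPM in control libraries, with 25 of 40 expanded libraries above the highest control. Its difference was small, 0.14 (SE 0.04, adjusted p = 0.79) with all libraries and 0.15 (SE 0.03, adjusted p = 0.001654) without the divergent ones, and the lowest expanded value was that of the divergent Q175 male 2. Gm10471, the Speer family copy shown above, had a median of 0.171 CPM in expanded and 0.0374 CPM in control libraries (6.65 and 1.43 counts), and its difference was 1.78 (SE 0.38, adjusted p = 0.0614) and 1.797 (adjusted p = 0.00933) without the divergent libraries. Gm5067, a processed pseudogene near it, had medians of 0.870 and 0.474 CPM in expanded and control libraries, with a difference of 0.83 (SE 0.22, adjusted p = 0.79) and 0.89 (adjusted p = 0.0309) without the divergent libraries. Of the 50-base words of Gm5067, 51.0% occurred in other genes.

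The genes next in order of p did not pass with or without the divergent libraries (adjusted p = 0.79 each with all 56). Among those with a level that differed in many libraries were Mlph, which encodes a linker of melanosomes to myosin (difference 0.31, 16 of 40 expanded libraries above the highest control), Epb41, which encodes a protein of the membrane skeleton (-0.14, 21 of 40 below the lowest control), Slc2a5, which encodes a fructose transporter (0.17, 17 above), Ubl4a, which encodes a helper of tail-anchored protein insertion (0.08, 17 above), Gm11331, an unprocessed pseudogene (0.74, 16 above), and Wnt2, which encodes a secreted signalling protein (0.24, 12 above). Amacr, which encodes a racemase of branched fatty acid breakdown, differed by 0.14 with 9 of 40 expanded libraries above the highest control. By contrast, Oca2 (-1.05), Wdr86 (-1.61), Steap1 (-1.89) and the unnamed ENSMUSG00000091294 (-2.001) had large differences with at most 10 of 40 expanded libraries beyond the controls. Q20 female 4 and Q20 male 1, the libraries with the highest summed level of choroid plexus markers (8143 and 6040 CPM), had the highest Oca2, Wdr86 and Steap1. Without Q20 male 1 alone Oca2 lay at -0.47 and Steap1 at -1.18, and without Q20 female 4 alone Wdr86 lay at -0.89.

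Htt itself did not pass in the pooled comparison. Its lowest, median and highest levels were 65.2, 213 and 260 CPM in expanded and 186, 216 and 239 CPM in control libraries, with a difference of -0.06 (SE 0.08, adjusted p = 0.83). The pooled value joined lines that lay on both sides of the controls, with medians of 237 CPM in Q80, 238 in Q92, 221 in Q111, 193 in Q140 and 175 in the Q175 line, against 219 in Q20 and 215 in WT. In Q175, 7 of 8 libraries lay between 171 and 186 CPM, and the divergent Q175 male 2 had 65.2 CPM. Among the expanded lines the test of any difference gave an adjusted p of 0.1157 with all libraries and 0.004612 without the divergent ones. The slope within these lines was -0.55 per 100 repeats (SE 0.11, adjusted p = 0.1413). Msantd1 overlaps the span of Htt on the same strand by 4523 bases. Only 0.106% of the 50-base words in Htt transcripts occurred in transcripts of other genes.

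Other differences among the 5 expanded lines were few and belonged to single libraries. The test called 5 genes (0.0289%; 501, or 2.89%, at an unadjusted p under 0.05), namely Gm8355, A230087F16Rik, Rpgrip1, Gm17139 and Igfn1, which are named after their values were seen. Q175 male 2 held the highest level in the first 4 of these (368, 28.3, 32.1 and 34.2 CPM) and Q111 female 3 in Igfn1 (57.0 CPM), and both are divergent libraries. Without the divergent libraries none of the 5 passed and Htt alone did (1 gene of 17333, 0.00577%). The slope on CAG length within the 40 expanded libraries called 0 genes (0%; 644 of 17142, or 3.76%, at an unadjusted p under 0.05) and 1, Htt, without the divergent libraries. For Gm7361 the slope was -0.20 (SE 0.20) and for Drc1 0.02 (SE 0.13) per 100 repeats, so that neither was shown to follow repeat length once the repeat was expanded. A difference of the effect between the sexes was called for 0 genes (0%; 286, or 1.65%, at an unadjusted p under 0.05).

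Since most of the called genes lie on chromosome 5, the genes near Htt were described as a list. Within 10 Mb of the start of Htt 167 genes were tested, of which 2 rose and 1 fell, and 12 were higher and 10 lower in expanded mice at an unadjusted p under 0.05. That is 13.2% of the list, against 4.96% of all genes tested, while the median difference was 0.02, against 0.00 over all genes. Over the whole of chromosome 5 the share was 7.55% (79 of 1047 genes). With distances before Htt written as negative, the called genes lay at -8.504 Mb (Gm7361), -7.266 Mb (Speer4b) and -4.48 Mb (Drc1), and Galnt11, Gm5067 and Gm10471 at -9.54, -8.755 and -8.679 Mb. Among the other genes of the window, Tyms, which encodes thymidylate synthase (-4.704 Mb), differed by -0.20 (adjusted p = 0.79). Zfp512 (-3.309 Mb) was higher, by 0.06. Insig1, which encodes a regulator of sterol synthesis (-6.69 Mb), differed by -0.12. Xrcc2, which encodes a protein of recombination repair (-9.072 Mb), differed by -0.11, and none of these genes passed. The window was drawn with earlier results known and the share is a description, for which no test was made.

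**Figure D2:**
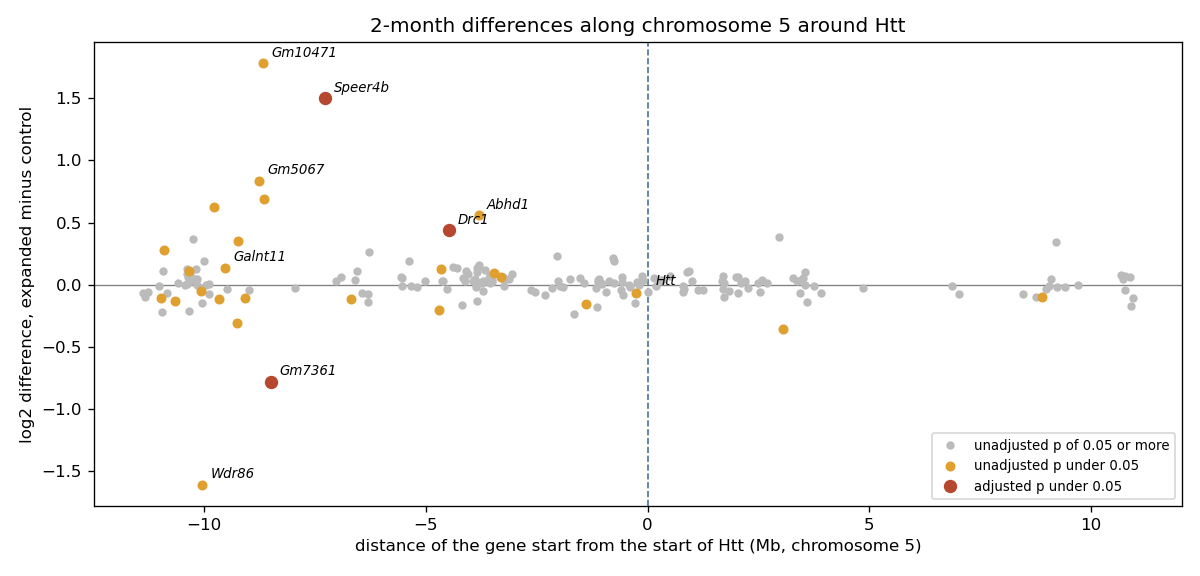
Log2 difference between expanded and control libraries for genes on chromosome 5 by their distance from the start of Htt in Mb, with negative distances before Htt and colours for the adjusted and unadjusted p under 0.05. Gm7361, Speer4b and Drc1, the 3 called genes, lie at -8.504, -7.266 and -4.48 Mb, with Gm10471 and Gm5067 at -8.679 and -8.755 Mb, and Htt itself lies at -0.06.

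Abhd1 (chr5:30950066-30955091, at -3.812 Mb from Htt) set WT apart from every knock-in line. Its name is that of a protein of the hydrolase fold family, but the annotation used here lists it as a processed transcript. It had 4.04 to 10.7 CPM in 38 of 40 expanded libraries, 4.35 to 7.22 CPM in 7 of 8 Q20 libraries and 1.46 to 2.44 CPM in 7 of 8 WT libraries. The comparison of Q20 with WT called 2 genes (0.0115%; 268, or 1.55%, at an unadjusted p under 0.05), Abhd1 (1.21, SE 0.21, adjusted p = 0.0129) and Gm2420, which is named after its values were seen. Because Q20 is among the controls, Abhd1 did not pass in the pooled comparison (0.56, SE 0.16, adjusted p = 0.79), whereas against WT alone it rose by 1.30 (adjusted p = 3.45e-05; 3 genes of 17231 passed, 0.0174%). Of the 50-base words of Abhd1, 67.6% occur in Preb, which overlaps it on the opposite strand. Without strand, reads of this shared part cannot be told apart between the 2 genes. Preb itself differed by 0.01 in the pooled comparison (adjusted p = 0.92).

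A total of 4 libraries had an Abhd1 level of the other kind. Q92 male 2 (1.91 CPM) and Q111 male 3 (1.70 CPM) were at the level of WT, and so was Q20 female 3 (2.20 CPM), whereas WT female 3 (5.59 CPM) was at that of the knock-in lines. Q92 male 2 and Q111 male 3 also had the lowest Drc1 of the expanded libraries (9.15 and 8.99 CPM), Gm2420 at the level of WT (0.0447 and 0.0513 CPM) and Gm6410 within the range of controls (0.811 and 0.753 CPM), but not Galnt11 (47.4 and 46.1 CPM, above the highest control of 43.4 CPM). Their Gm7361 was 1.63 and 2.25 CPM, above the lowest control and below the control median. Their Gm5067 (0.201 and 0.413 CPM) and Gm10471 (0.0556 and 0 CPM) were also within the range of controls. Other expanded libraries lay within that range as well in Drc1, Gm6410, Gm5067 and Gm10471. In Gm2420, Q111 female 1 (0.108 CPM) lay within the range of WT too. So did the divergent Q140 female 4 (0.02625 CPM), Q175 male 2 (0.0539 CPM) and Q111 female 3 (0.0742 CPM). Gm2420 was at the level of WT in Q20 female 3 (0.0484 CPM) and in WT female 3 (0.0495 CPM). Whether these libraries carry the genotype on their label was not tested. They were chosen by their Abhd1 level, and Q92 male 2 and Q111 male 3 lay within the control range in Drc1 and Gm6410. A fit without these libraries therefore gives no separate support for the calls. With all 4 left out 6 genes of 17370 passed (0.0345%), the same 5 and Gm10471 (adjusted p = 0.0207), with Drc1 at 0.45 (adjusted p = 8.02e-04), Gm6410 at 0.70 (adjusted p = 0.001888), Gm7361 at -0.81 (adjusted p = 5.2e-05) and Speer4b at 1.495 (adjusted p = 0.0207).

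**Figure D3:**
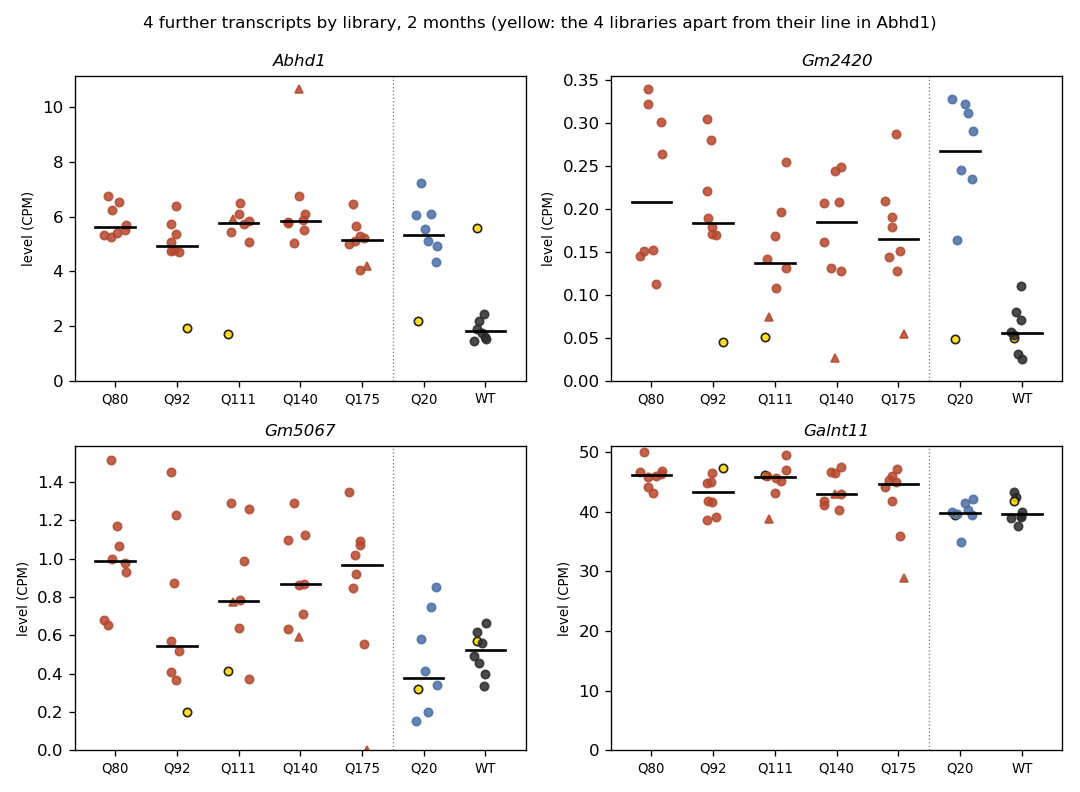
Levels of Abhd1, Gm2420, Gm5067 and Galnt11 in each 2-month library, in CPM, by genotype, with the expanded lines left of the dotted line; bars are medians, triangles the divergent libraries, and yellow points the 4 libraries that stand apart from their genotype in Abhd1. In Abhd1 38 of 40 expanded libraries lie at 4.04 to 10.7 CPM, and WT libraries at 1.46 to 2.44 CPM except WT female 3 at 5.59 CPM.

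Some calls needed both control genotypes. Against WT alone (8 libraries) Gm7361 fell by 0.77 (adjusted p = 0.0240), and against Q20 alone by 0.79 (adjusted p = 0.0222; 3 genes of 17253 passed, 0.0174%). Drc1 had almost the same difference against either, 0.42 and 0.46, and passed against neither (adjusted p = 0.48 and 0.14), with fewer controls in the fit. Gm6410 (0.67 and 0.62) and Speer4b (1.77 and 1.28) did not pass against either control alone. Gm7361, Drc1, Gm6410 and Speer4b passed in all 56 fits that left out 1 library each, while Pomc passed in 54. The column names of the counts hold a code that was read here as the sequencing lane, although the sample labels do not explain it. In order of library number, this code gave 12 runs. With these inferred lane runs as a factor, Gm7361 (-0.75, adjusted p = 0.00792) and Drc1 (0.43, adjusted p = 0.0141) passed (0.0115%). Gm6410 (0.61, adjusted p = 0.20), Speer4b (1.42, adjusted p = 0.26) and Pomc (-1.14, adjusted p = 0.87) did not.

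The same contrast was made in other mice, at 6 months (40 expanded and 16 control libraries) and at 10 months (40 and 16). These comparisons share no library with that of 2 months. At 6 months 191 of 17296 genes passed (1.1%), and 386 of 17407 (2.22%) without the divergent libraries of that age. Gm7361 fell by 0.64 (adjusted p = 0.00719), Drc1 rose by 0.40 (adjusted p = 6.26e-07), Gm6410 by 0.57 (adjusted p = 0.0136), Speer4b by 1.90 (adjusted p = 0.001625), Gm10471 by 2.15 and Gm5067 by 1.13 (adjusted p = 1.32e-04 each), Galnt11 by 0.16 (adjusted p = 1.53e-04) and Abhd1 by 0.55 (adjusted p = 0.0136). Pomc had a difference of -0.34 (adjusted p = 0.74). At 6 months the 8 WT and 8 Q175 libraries carry numbers of one series and the other 5 genotypes numbers of another. The fit therefore held a term for the series, which sets Q175 against WT and the remaining lines against Q20, and without it 11 genes passed (0.0636%), Gm7361 among them (-0.64, adjusted p = 0.0101).

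At 10 months 6 of 17266 genes passed (0.0348%), of which Gm10471 rose by 2.29 (adjusted p = 0.0257). Gm7361 (-0.61, adjusted p = 0.0515), Drc1 (0.27, adjusted p = 0.1165), Gm6410 (0.52, adjusted p = 0.0942), Gm5067 (0.81, adjusted p = 0.21) and Galnt11 (0.16, adjusted p = 0.46) had the direction of 2 months but did not pass, and each of these 5 passed without the 5 divergent libraries of that age, in a fit that called 301 of 17216 genes (1.75%). Speer4b was too low to be tested. Abhd1 (0.32) did not pass in either fit. In a test of the difference between ages, none of the chromosome 5 genes above nor Gm6410 passed. The effect at 6 months differed from that at 2 months in 2 genes (0.0112%), Prl and Gh, and the effect at 10 months in 13 (0.0725%), among them Prl, Gh and Pomc (2.48 higher at 10 months, adjusted p = 0.001783). The high levels of Prl, Gh and Pomc at 2 months were those of the 2 control libraries named above. The smallest p of the 13 were those of the Y-linked Eif2s3y and Ddx3y. At 10 months Q20 female 5, a control and a divergent library, had 55.05 CPM of Ddx3y and 0.0696 CPM of Xist although it is labelled female. Without the divergent libraries 3 of the 13 passed, namely Pomc, Prl and Hoxc4.

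**Figure D4:**
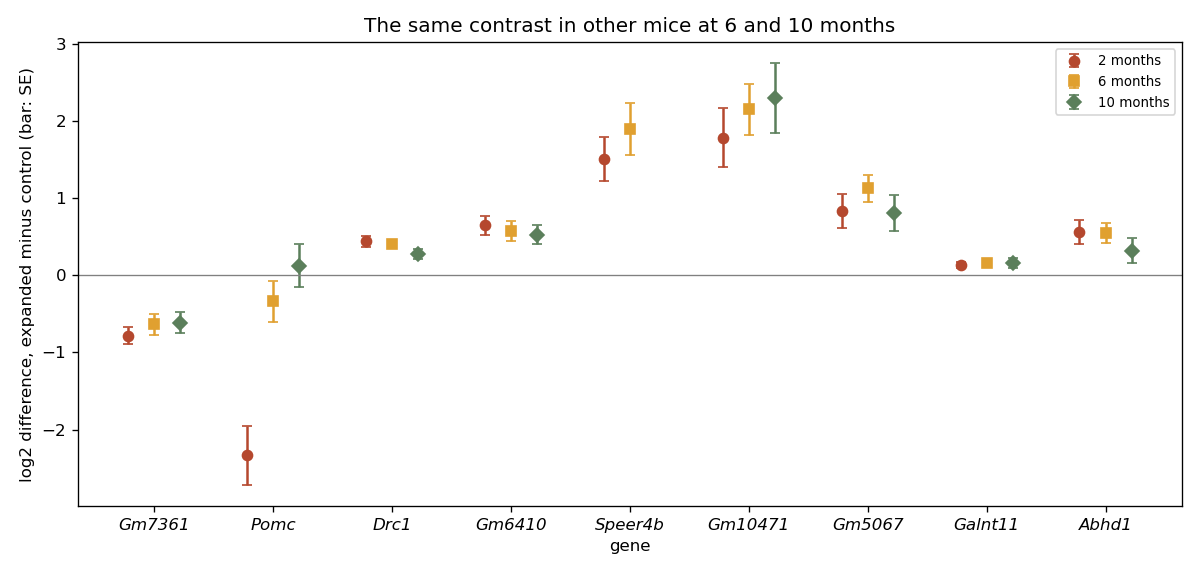
Log2 difference between expanded and control libraries for 9 named genes at 2, 6 and 10 months, each age with its own mice; bars are standard errors. Gm7361 lies at -0.79, -0.64 and -0.61 and Drc1 at 0.44, 0.40 and 0.27, while Pomc lies at -2.33, -0.34 and 0.12.

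No marker of the hippocampal cell types passed. Among 49 tested markers of CA1, CA2 and CA3 pyramidal neurons, dentate granule cells, immature neurons and interneurons none was called or had an unadjusted p under 0.05 with all 56 libraries, and the medians of these lists ran from -0.05 to 0.04. Markers of astrocytes (12 tested, median 0.04), oligodendrocytes (12, 0.07) and microglia (12, 0.09) included no called gene either. S100b, a calcium-binding protein of astrocytes, had medians of 95.0 CPM in expanded and 86.5 CPM in control libraries, with a difference of 0.16 that did not pass (adjusted p = 0.79). Immediate early genes, whose levels follow neuronal activity, had a median of 0.00 over 21 genes, with none at an unadjusted p under 0.05. Of 11 genes for partners of huntingtin and 12 of the interferon response none reached that p, and of 13 genes for the repair of CAG repeats 1 was lower. In the lists of sterol synthesis (23 genes), the circadian clock (15) and heat shock chaperones (12) 1 gene each did (4.35, 6.67 and 8.33%, against 4.96% of all genes tested). The astrocyte list had 2 of 12 genes at that p (16.7%). Without the divergent libraries 3 of 15 clock genes (20%) and 3 of 12 astrocyte genes (25%) were higher at that p, against 7.63% of all genes in either direction. In the same fit 2 of 9 markers of CA2 and CA3 pyramidal neurons (22.2%) were lower at that p. So was 1 of 11 genes for partners of huntingtin (9.09%), while 1 of 12 interneuron markers (8.33%) was higher. Over all 29 lists, those with a called gene were the list near Htt, the motile cilia with Drc1, and the hypothalamus and pituitary with Pomc.

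Drc1 moved apart from the other genes of motile cilia. Of 34 such genes tested Drc1 was the only one called, 4 were lower at an unadjusted p under 0.05 (Drc7, -0.73, Spag16, -0.52, Cfap65, -0.30, and Cfap44, -0.22, adjusted p = 0.79 each), and the median was -0.12. At that p the list stood at 14.7%, against 4.96% of all genes tested, of which 0.0289% were called. Drc7, a subunit of the same complex, had medians of 2.03 CPM in expanded and 2.17 CPM in control libraries. The summed level of the list was 245 to 422 CPM in expanded and 285 to 443 CPM in control libraries.

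Markers of the choroid plexus, a ciliated epithelium that lies against the hippocampus, varied widely within both groups. All 11 were lower in expanded mice at an unadjusted p under 0.05 and none passed (median difference -1.499). Their summed lowest, median and highest levels were 132, 211 and 4137 CPM in expanded and 147, 230 and 8143 CPM in control libraries, so that the medians were close and the difference was that of a few libraries. Ttr (transthyretin) was above 100 CPM in 4 of 40 expanded and 5 of 16 control libraries (3 Q20 and 2 WT). Aqp1, a water channel of this epithelium, differed by -1.68 (SE 0.56), but by 0.05 against WT alone. Drc7, Oca2 and Wdr86 also lay slightly above 0 against WT alone (0.0015, 0.035 and 0.12), and Oca2 and Wdr86 without the libraries high in Ttr (0.072 and 0.011). Steap1 lay at -0.21 with the summed choroid plexus level as a covariate. With that covariate Gm7361 (-0.78), Drc1 (0.45), Gm6410 (0.66) and Speer4b (1.56) passed (4 genes, 0.0231%) and Pomc did not (adjusted p = 0.14). Without the 9 libraries high in Ttr, Gm7361, Drc1 and Gm6410 passed together with Gh and Prl (5 genes of 17479, 0.0286%), and Speer4b had an adjusted p of 0.0984. Q20 female 2 is among these 9, so the highest control level of Gh and Prl in that fit was that of WT male 4 (183.7 and 60.9 CPM).

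**Figure D5:**
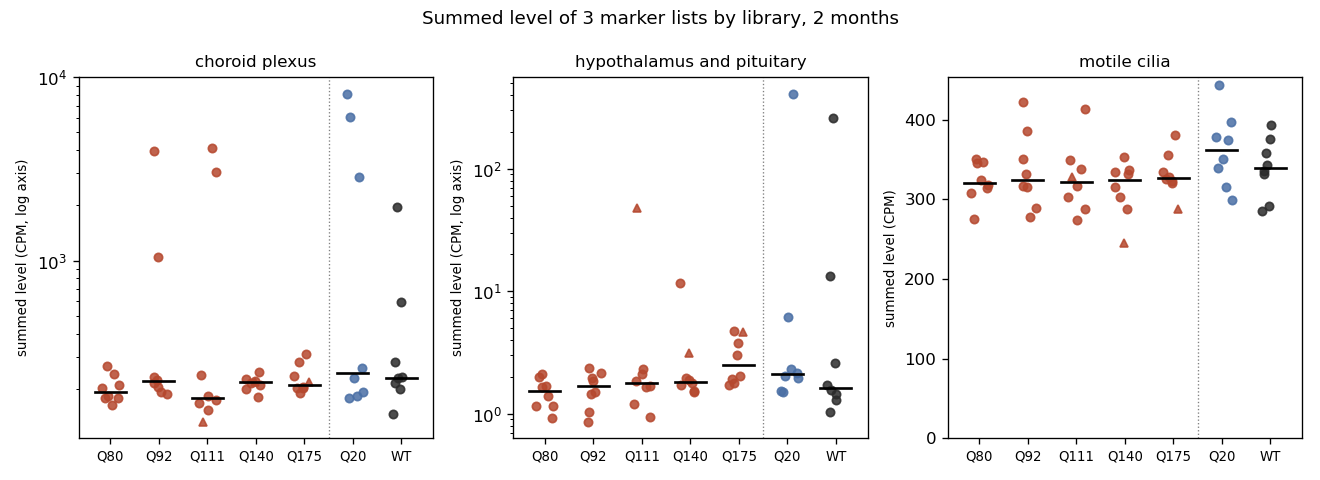
Summed level of choroid plexus, hypothalamus and pituitary, and motile cilia markers in each 2-month library, in CPM (log axes for all but the cilia), by genotype with the expanded lines left of the dotted line and the controls right of it. Choroid plexus sums reach 4137 CPM in expanded and 8143 CPM in control libraries from medians of 211 and 230 CPM.

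Transcripts of ribosomal proteins and of the nuclear respiratory chain moved with the divergent libraries. Of 81 nuclear genes for ribosomal proteins 80 had a difference above 0, against 8856 of all 17320 genes tested. The ribosomal median was 0.13, against 0.00 over all genes, and none was called. Without the divergent libraries the ribosomal median was 0.03. Their share of all counts was 0.932 to 2.83% in expanded and 0.939 to 1.12% in control libraries. For 95 nuclear genes of the respiratory chain the median was 0.10, and 0.03 without the divergent libraries. The 15 mitochondrial transcripts had a median of 0.03 with all libraries, none of them at an unadjusted p under 0.05, and of 0.05 without the divergent libraries, 5 of them higher at that p (33.3%, against 7.63% of all genes). They took 3.44 to 11.9% of the counts in expanded and 9.03 to 10.1% in control libraries.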

How the data were processed

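RNA of hippocampus was sequenced by the submitters with standard Illumina libraries, and CASAVA 1.8.2 is named in their processing notes. The authors deposited expected counts (estimated read numbers of each gene, not scaled), of which 16.89% are not whole and were rounded. The deposited FPKM file was not used here. Aligner, quantifier, genome build, annotation and strand setting were not given in the sources used here. Each column was matched to a sample title, and 0 columns were left unmapped. GENCODE M21 (build GRCm38) named 37693 of 39179 gene identifiers and gave all coordinates and sequences.

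With edgeR 4.0.16, low genes were dropped (filterByExpr at a count of 10 and a total of 15), libraries were scaled by TMM, and levels are TMM-scaled CPM. All adjusted p-values are from edgeR's quasi-likelihood F test (two-sided, in R 4.3.3) with Benjamini-Hochberg adjustment over all genes tested, at a threshold of 0.05, with sex as a covariate; "rose", "fell", "called" and "passed" refer to that threshold. Differences are log2, expanded minus control. Simulated data for the 2-month comparison held 17265 genes. Of 100 genes changed by 0.5 on the log2 scale 94% were recovered, and 99% of 100 genes changed by 1. Of 17065 unchanged genes 15 were called. The changed genes were drawn only from genes with a mean above 50 counts per library. The shares recovered therefore give no figure for scarce genes such as Speer4b and Gm10471, and they were not split by level. Alternatives used DESeq2 1.42.0, voom of limma 3.58.1, other scaling, filters, covariates and sets of libraries. Connectivity was computed on log2 CPM (prior count 2) of genes with a mean of at least 1 CPM. Shared 50-base words and alignments were computed in Python 3.11.15 with Biopython 1.88.

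Libraries are labelled as separate samples, and p-values measure the spread between them. Among 196 pairs of libraries of a group the lowest chi-square per gene was 4.72, above the value near 1 that counting noise would give. Named genes are Htt, the called genes, those next in p up to 20, the 2 members with the smallest p of each list, and those called without the divergent libraries; not all are printed, and a gene of the lists is not reported here. The members, gene lists and rules were chosen with earlier results of these data known.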

Additional observations from a re-analysis of the deposited data

Results flagged for a closer look

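The level of 11 genes (the 5 called genes, Htt, Galnt11, Gm10471, Gm5067, Abhd1 and Gm2420) was looked over for a library far from the other 7 of its genotype at 2 months, by Dixon's ratio. Of 77 groups 15 had such a library, and chance flags about 1 in 20 groups. Among expanded libraries, Htt was low in Q175 male 2 (65.2 CPM, the next value being 171 CPM), in which Pomc was high (1.56 CPM). Drc1 was low in Q92 male 2 (9.15 CPM) and high in Q111 female 3 (29.0 CPM). Gm6410 was high in Q80 male 5 (1.70 CPM) and low in Q140 female 4 (0.389 CPM). Abhd1 was low in Q92 male 2 (1.91 CPM) and Q111 male 3 (1.70 CPM) and high in Q140 female 4 (10.69 CPM). Among controls, Gm7361 was low in Q20 male 4 (1.27 CPM), Galnt11 was low in Q20 female 1 (34.95 CPM), Speer4b was high in WT male 1 (0.135 CPM) and Abhd1 was high in WT female 3 (5.59 CPM). Pomc was high in Q20 female 2 (22.97 CPM) and in WT male 4 (10.83 CPM). Of these values 5 belong to divergent libraries.

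The effect on Pomc differed between ages, with that at 10 months 2.48 higher on the log2 scale than that at 2 months (edgeR's quasi-likelihood test, adjusted p = 0.001783).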

How the results depend on the processing

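The pooled comparison called 5 genes, and 8 without the divergent libraries or without these and Q20 female 4, 18 without a filter on low counts, 2 with lane runs as a factor, 3 against WT alone, 3 against Q20 alone and 2 without the 2 control libraries high in Pomc. Leaving out 1 library at a time gave 4 (without Q20 female 2) to 8 genes (without Q175 male 2). Lines that differ were called for 1 gene without the divergent libraries and for 0 without Q175, and the slope within the lines called 1 gene without the divergent libraries. At 6 months 386 genes passed without the divergent libraries and 11 without the series term, at 10 months 301 without the divergent libraries and 11 with size factors of the DESeq2 type, and the effect at 6 months differed from that at 2 months in 4 genes without the divergent libraries. Gm7361 passed in all 21 alternatives (-0.87 to -0.72) and Drc1 in 19 of 21 (0.37 to 0.46), the exceptions being the fits against WT alone and against Q20 alone. Gm6410 passed in 17, Speer4b in 15 and Pomc in 14 of 21. The alternatives on Abhd1, Pomc and the choroid plexus, and that which leaves out Q20 female 4 as well, were chosen after seeing the data. The DESeq2 test called 6 genes.

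Direction changed in differences that had not passed, except for Pomc (0.055 without the 2 control libraries). Without Q175 the value of Htt was 0.017. Against WT alone Oca2 was at 0.035, Wdr86 at 0.12, Aqp1 at 0.049, Drc7 at 0.0015 and Oasl2 at 0.0071. Against Q20 alone Isg15 was at -0.034 and Gm2420 at -0.44. With the choroid plexus covariate Prlr was at 0.049 and Drc7 at 0.022, and without the libraries high in Ttr Oca2 was at 0.072, Wdr86 at 0.011 and Prlr at 0.075. The cause of these changes was not tested.

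With a replicate block (sex by replicate number) 4 genes passed, all but Pomc (-1.49, adjusted p = 0.82). Libraries that share a number had a mean correlation of their deviations of -0.02 to 0.08, which gives little sign that the numbers pair the mice. The share of pairs with a correlation above 0.1 ran from 9.52% (females 1, 2 and 3) to 38.1% (males 1 and 3). These values cannot exclude a pairing. Depth limits Speer4b and Gm10471, with medians of 8 and 6.65 counts in expanded libraries and 2 and 1.43 in controls.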
